A study of Brassica napus with 12 samples.

Results

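The genes described here are those whose transcripts were lowest under drought relative to control in flowers of the rapeseed (Brassica napus) genotype G67. They were chosen by 2 limits on the G67 values, a control mean of at least 1 FPKM and a drought mean of at most 0.4 times the control mean. FPKM is a read abundance scaled for transcript length and for the number of mapped fragments in the library. Of the 998 genes listed in the files, 129 met both limits. In all, 869 of the listed genes had a G67 control mean of at least 1 FPKM once 6 candidate genes of the study had been left out by name, and 0 of these 6 would have met the limits. As the G67 values chose the genes, their fall in G67 is given as a description, and G67 test calls are printed only as such. Only the G59 fold changes were left unused by the choice. Their test takes its spread from all 12 libraries, those of G67 included.

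G67 has a high content of phenolics and G59, the other genotype of the study, a low one, and flowers of both were harvested 15 days after flowering. Control plants stood in soil kept at 30% relative water content with sterile water, and drought plants in soil at 10% with a 20% solution of PEG6000, a polymer that holds back water from roots. Each of the 4 groups has 3 libraries, 12 in all, and the study's methods speak of a repeated experiment and of flowers taken per replicate group. How many plants went into a library is not given in the sources used here. RNA of whole flowers was sequenced, so that fewer cells of a type and less RNA per cell cannot be told apart.

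Drought at flowering makes plants close their stomata, slows growth and raises abscisic acid, and transcripts of growth and of reproductive tissue often decline while those of protective proteins rise. Rapeseed carries the joined genomes of Brassica rapa and Brassica oleracea, so that most of its genes have near copies between which reads can be split. The files pair no identifier with a function, and the genes are therefore given by identifier, without a role. Of the 129 lowered genes, 121 carry NCBI numbers (LOC) and 8 carry names of the Brassica genome annotation (BNA). Whether the libraries express known flower markers was not tested.

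The list is not a sample of all genes of the flower. Apart from the 6 candidate genes, no listed gene with a control mean above 0 had a drought-to-control ratio from just over 0.964 to just under 1.68 in G67, nor from just over 0.629 to just under 1.56 in G59. Shares of the listed genes, where given below beside a count of lowered genes, are thus shares of genes that already differed.

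The lowered genes covered a wide range of levels. Their control means ran from 1.05 to 1498 FPKM with a median of 8.51 FPKM, and their drought means from 0 to 465 FPKM with a median of 2.26 FPKM. Of the 129, 50 had a control mean from 1 to below 5 FPKM, 17 from 5 to below 10, 42 from 10 to below 50, 10 from 50 to below 100 and 10 at 100 FPKM or more. The share that met the limits was highest at low levels, as 23.8% of the 210 genes with a control mean from 1 to below 5 FPKM did, against 10.0% to 13.3% in the higher classes. The order of the 129 genes by level was largely kept under drought, with a rank correlation of 0.919 between control and drought means. The limits tied the drought mean to the control mean, so this is a description. The 10 genes with the highest control means held 70.0% of the summed control FPKM of the set and 70.4% of its summed drought FPKM.

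**Figure D1:**
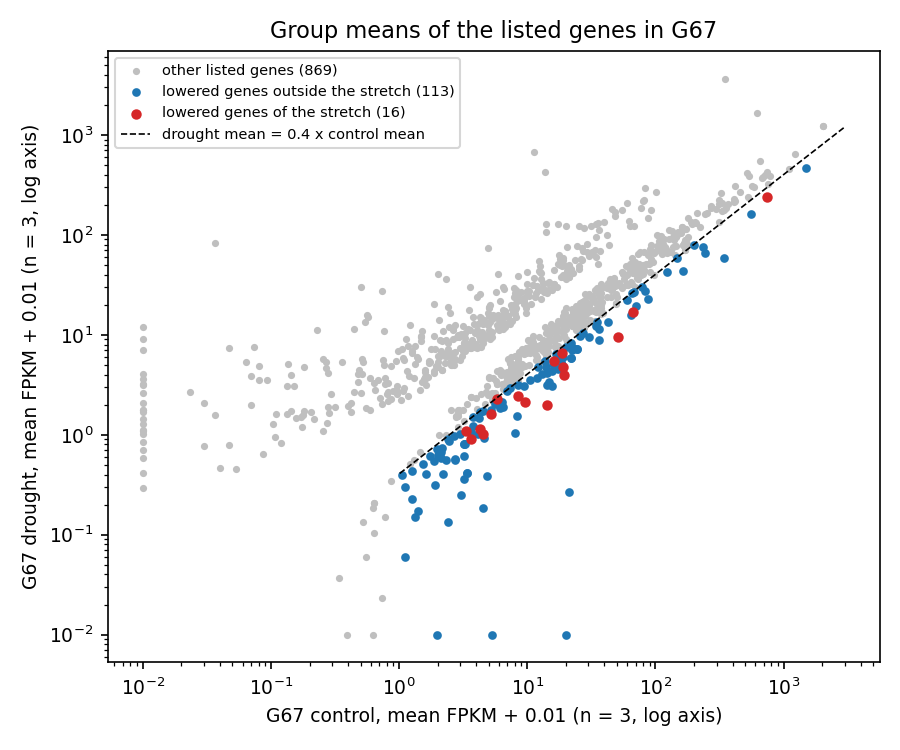
Mean FPKM of each listed gene in the 3 G67 control libraries (x axis) and the 3 G67 drought libraries (y axis), both with 0.01 added and on log axes, with the 129 lowered genes in colour, the other 869 in grey and a dashed line at a ratio of 0.4. The lowered genes lie on or under the line at all levels from 1.05 to 1498 FPKM, and 3 of them sit at the bottom with a drought mean of 0.

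The most abundant gene of the set was LOC106352647. Its G67 control values were 1886, 1235 and 1374 FPKM and its drought values 710, 420 and 263 FPKM. All drought libraries lay below all control libraries, with a ratio of means of 0.310 ± 0.151 (SD of the 3 drought libraries over the control mean, here and below, n = 3). LOC106354088 followed, with control values of 848, 620 and 751 FPKM and drought values of 357, 236 and 130 FPKM, a ratio of 0.326 ± 0.154. Again the groups did not overlap, and replicate 3 of drought was the lowest. LOC106353334 had control values of 389, 643 and 653 FPKM and drought values of 217, 176 and 89.3 FPKM (ratio 0.286 ± 0.116), with its lowest control library still well above its highest drought library.

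LOC106353089 had the lowest ratio among these abundant genes, 0.171 ± 0.050. Its control values were 190, 450 and 385 FPKM and its drought values 63.6, 72.3 and 39.2 FPKM, so that the control libraries spread more than the drought ones. LOC106349237 fell from 262, 209 and 258 FPKM to 91.6, 62.0 and 42.8 FPKM (ratio 0.270 ± 0.101). LOC106354272 fell from 210, 242 and 253 FPKM to 94.3, 78.8 and 56.2 FPKM (ratio 0.325 ± 0.082). In both, replicate 3 was the lowest drought library, as it was in LOC106346283, which had control values of 200, 122 and 167 FPKM and drought values of 77.9, 26.8 and 24.8 FPKM (ratio 0.265 ± 0.185).

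BNAANNG30680D differed from the abundant genes named above in the order of its replicates. Its control libraries held 242, 239 and 119 FPKM and its drought libraries 88.8, 58.6 and 92.3 FPKM. Replicate 3 was the lowest under control and the highest under drought, and the gene was the last to meet the limit, with a ratio of 0.39974.

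**Figure D2:**
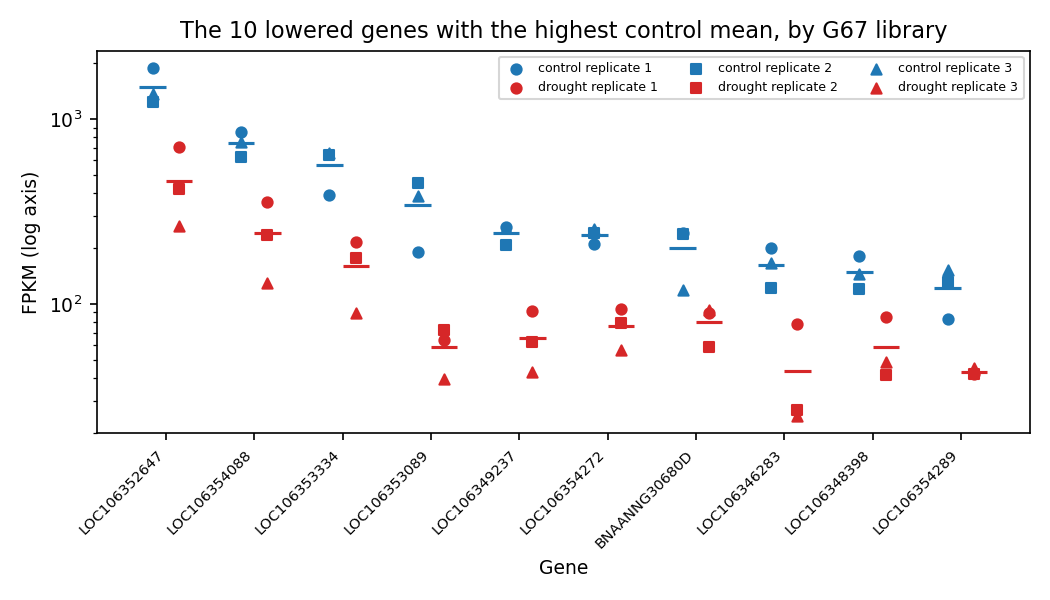
FPKM on a log axis in each of the 6 G67 libraries for the 10 lowered genes with the highest control mean, control in blue and drought in red, with a marker shape for each replicate number and a bar at each group mean (n = 3). All red points lie below all blue points of the same gene, from 1886 against 710 FPKM at the highest in LOC106352647 downwards.

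The ratio of drought to control had a median of 0.304 over the set. It was 0 in 3 genes, above 0 and up to 0.1 in 6, above 0.1 and up to 0.2 in 17, above 0.2 and up to 0.3 in 38 and above 0.3 in 65 genes. About as many genes thus lay in the last step below the limit as in all lower ones. Just inside it were BNAANNG30680D, LOC106346841 with a ratio of 0.399645 and LOC106345773 with 0.399468. Just outside it were LOC106346996 with 0.400291, LOC106348910 with 0.404 and LOC106352788 with 0.408.

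The next genes had the lowest ratios among those with a control mean of at least 5 FPKM. LOC106352331 had control values of 25.95, 17.1 and 17.5 FPKM and was listed at 0 in every drought library. All its control libraries lay well above 0. LOC106354107 had control values of 13.1, 17.8 and 11.4 FPKM and drought values of 2.19, 2.52 and 1.24 FPKM (ratio 0.140 ± 0.047). LOC106350402 had control values of 8.81, 8.79 and 7.32 FPKM and drought values of 1.21, 2.22 and 1.11 FPKM (ratio 0.182 ± 0.074). LOC106354101 had control values of 50.3, 55.1 and 46.5 FPKM and drought values of 13.5, 11.6 and 3.30 FPKM (ratio 0.187 ± 0.107). In all these the groups were far apart, and in LOC106354101 replicate 3 of drought lay well below the other two.

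Other low ratios rested on 1 or 2 control libraries. LOC106346561 had control values of 15.9, 0 and 0 FPKM and drought values of 0 throughout. LOC106348991 likewise had 0, 0 and 5.89 FPKM under control and 0 in all drought libraries. In both, 1 control library carried the whole control mean, and the other 2 were listed at 0 as under drought. LOC106352733 had control values of 31.9, 0.28 and 31.4 FPKM and drought values of 0.34, 0.25 and 0.19 FPKM, with control replicate 2 at the drought level. LOC106353659 had control values of 3.10, 19.5 and 1.49 FPKM and drought values of 0.95, 1.69 and 0.44 FPKM, with most of its control mean in replicate 2. LOC106353951 had control values of 0.29, 13.1 and 0.07 FPKM and drought values of 0.14, 0.31 and 0.07 FPKM, the same kind of pattern.

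In these genes the control and drought libraries overlapped, as they also did in LOC106354228 and LOC106347735. LOC106354228 had control values of 112, 38.8 and 55.0 FPKM and drought values of 46.6, 23.97 and 9.40 FPKM, where replicate 1 was the highest library of both groups. LOC106347735 had control values of 6.93, 2.63 and 3.31 FPKM and drought values of 2.69, 1.35 and 1.03 FPKM, with the first drought library just above the second control library. These 7 were the only overlapping genes of the set. In the other 122 all drought libraries lay below all control libraries, which was so for 48.6% of the 998 listed genes; the limits used these values, so nothing is read from the difference. The lowest control library was at least 2 times the highest drought library in 47 genes and between 1 and 2 times it in 74 genes, and LOC106352331 had no drought value above 0.

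The limma test on log2(FPKM + 1), with genes called where the adjusted p did not exceed 0.05 and the log2 fold change reached 1 in size, called 103 of the 129 genes lower in G67, and 14.5% of the listed genes. These calls used the values that chose the genes, and nothing is read from them. Of the 26 genes it did not call, 24 had a control mean under 5 FPKM, where adding 1 to each value shrinks the fold change. After median-ratio scaling of the 12 libraries 68 of the 129 were called, and 12.0% of the listed genes.

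The 3 drought libraries did not lower the genes to the same depth. Relative to the control mean, the median level of the lowered genes was 0.355 in replicate 1, 0.293 in replicate 2 and 0.167 in replicate 3. In the 745 other genes with a control mean of at least 1 FPKM, 5 of the candidate genes among them, the same medians were 0.870, 0.783 and 0.749. Replicate 3 was the lowest of the drought libraries in 94 of the 129 lowered genes (72.9%) and in 302 of the others (40.5%). These others hold genes raised under drought as well as genes lowered less, and they were not split here. The shares are therefore not read as a trait of the set. The spread between libraries is given next as a description, since the same libraries chose the genes. The median coefficient of variation of the drought libraries was 0.471 in the set and 0.178 in the other genes, and that of the control libraries was 0.232 and 0.138.

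The sums over the set show the same order. The lowered genes summed to 6510, 5848 and 5878 FPKM under control and to 2513, 1779 and 1210 FPKM under drought. These were 12.7%, 12.9% and 12.1% of the FPKM of all listed genes under control and 5.79%, 4.14% and 3.09% under drought. The FPKM of all listed genes moved less, from between 45469 and 51160 under control to between 39158 and 43412 under drought. What sets replicate 3 of drought apart was not tested. Without it, 100 genes met the limits, of which 96 belong to the set and 33 of the set were lost.

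**Figure D3:**
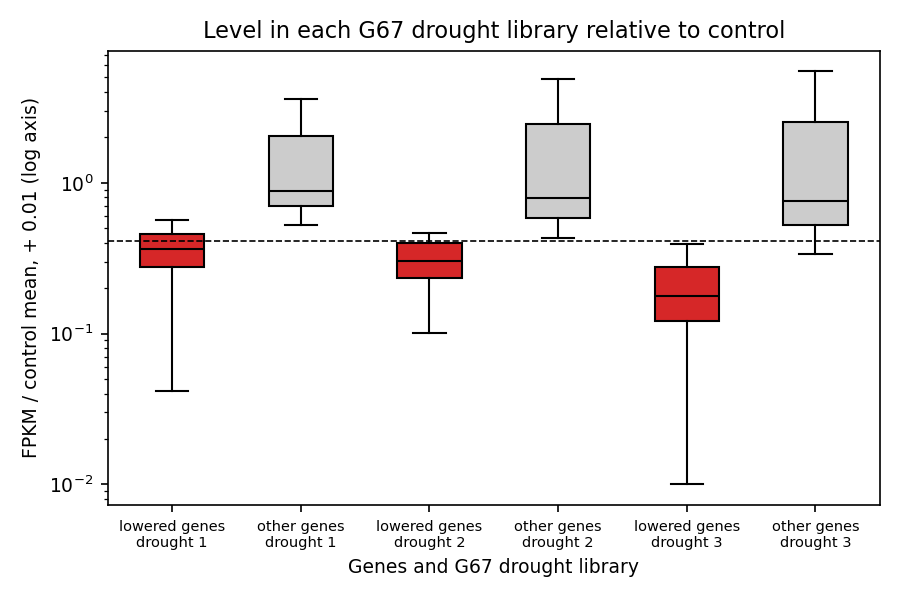
FPKM in each G67 drought library divided by the G67 control mean, with 0.01 added, on a log axis, for the 129 lowered genes (red) and the 745 other genes with a control mean of at least 1 FPKM (grey); boxes span the quartiles with a line at the median, whiskers the 5th to 95th percentile, and the dashed line marks a ratio of 0.4. The red medians step down from 0.355 to 0.293 and 0.167, the grey ones from 0.870 to 0.783 and 0.749.

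Same-numbered control and drought libraries deviated together in G67, so the genes were also compared pair by pair, though the labels state no pairing. In 126 of the 129 genes drought was lower in all 3 pairs. The limits used these values and the share over all listed genes was not computed, so nothing is read from this count. The median ratio within a pair was 0.363 for replicate 1, 0.296 for replicate 2 and 0.196 for replicate 3, over the 127 or 128 genes with a control value above 0. The depth of the fall thus differed between the pairs too, with the third pair the deepest.

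The positions of the lowered genes were then compared in the gene order of the RefSeq annotation of another rapeseed assembly, Da-Ae. This comparison, its window and the ends of the stretch below were chosen after the values were seen, and no test was run. Of the 129 genes, 103 were found there, and of the 998 listed genes 877. Within 5 gene places, 65 lowered genes had another listed gene, and in 27 of them (41.5%) at least 1 of these neighbours was itself a lowered gene. Of 412 other listed genes with a listed neighbour this was so for 62 (15%). Most of the difference lay in a single stretch, since outside it the share was 12 of 50 lowered genes (24%). With windows of 1, 3 and 10 gene places the shares outside it were 14.3%, 20.0% and 20.0%, and those of the other listed genes 12.8%, 11.5% and 20.4%.

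That stretch opens with the first matched listed genes of its chromosome and holds 19 listed genes in a row within 119 gene places, from LOC106354110 to LOC106354085. They form 2 groups, of 5 and 14 genes, whose nearest members are 77 gene places apart. Of these 19 genes, 16 belong to the lowered set. The 3 that do not were lower under drought as well, LOC106354097 with a ratio of 0.425, LOC106354091 with 0.447 and LOC106354089 with 0.561. In all 19 genes every drought library lay below every control library, which was so for 48.6% of the listed genes. The limits used these values to choose 16 of the 19, so nothing is read from this count. The next listed gene, LOC106347803, is 623 gene places further on and had a ratio of 0.729.

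The genes of the stretch spanned levels from 3.21 to 740 FPKM under control. LOC106354088, described above, was the highest. LOC106354085 beside it had control values of 69.6, 80.5 and 51.6 FPKM and drought values of 23.6, 20.3 and 6.63 FPKM (ratio 0.251 ± 0.134). BNAA08G00370D, the next one back, had control values of 18.5, 18.3 and 18.97 FPKM and drought values of 7.34, 8.51 and 3.80 FPKM (ratio 0.353 ± 0.132). Its control libraries were the closest of the stretch, with a coefficient of variation of 0.019.

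At the other end of the stretch, LOC106354110 had control values of 6.63, 10.0 and 8.57 FPKM and drought values of 2.69, 3.90 and 0.63 FPKM (ratio 0.286 ± 0.197). LOC106354114 had control values of 20.5, 20.3 and 17.5 FPKM and drought values of 5.48, 4.47 and 1.89 FPKM (ratio 0.203 ± 0.095). Nearer to LOC106354085, LOC106354093 had control values of 7.53, 10.8 and 10.3 FPKM and drought values of 2.01, 3.75 and 0.54 FPKM (ratio 0.220 ± 0.168). In these, as in each of the 19 genes, replicate 3 of drought was the lowest library.

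Over the 19 genes the level relative to control had a median of 0.391 in drought replicate 1, 0.340 in replicate 2 and 0.147 in replicate 3. The ratio of means ran from 0.140 to 0.561 with a median of 0.286. Without replicate 3 it ran from 0.167 to 0.608 with a median of 0.387, and 11 of the 16 genes still met the limits. The control libraries had a median coefficient of variation of 0.142 in the stretch, 0.258 in the 113 lowered genes outside it and 0.138 in the other listed genes with a control mean of at least 1 FPKM. Among these 113, replicate 3 was the lowest drought library in 78.

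**Figure D4:**
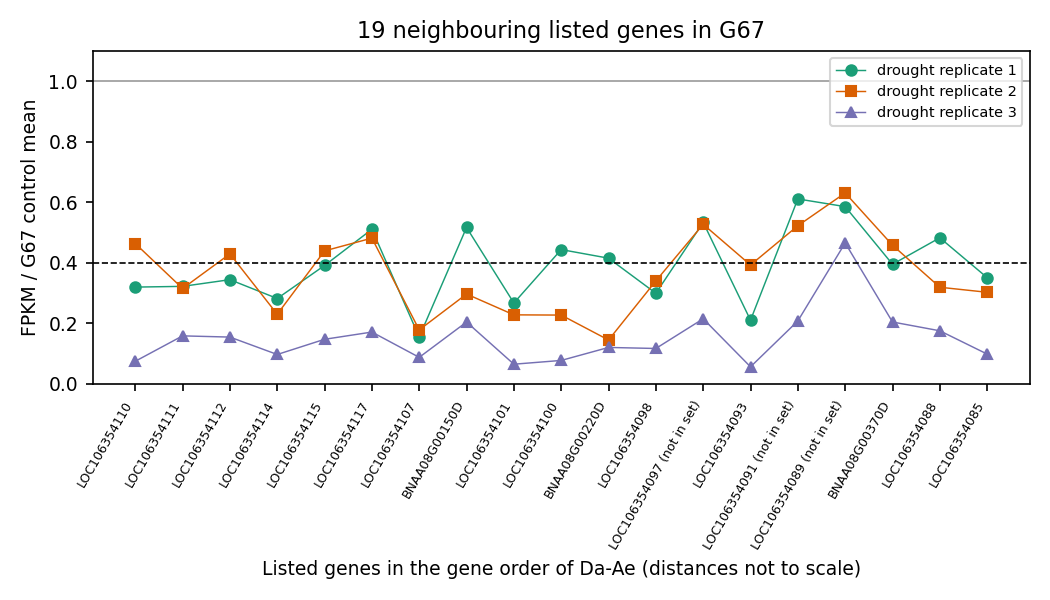
FPKM in each of the 3 G67 drought libraries divided by the G67 control mean, for the 19 neighbouring listed genes in the gene order of Da-Ae (distances not to scale), with lines at 1 (the control mean) and at a ratio of 0.4 (dashed). All points lie below 1, and replicate 3 (triangles) is the lowest in all 19 genes.

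Listed genes in a row that were all in the set came in 4 runs of 3 or more, of 12, 4, 3 and 3 genes, 22 genes in all. The run of 12 and 1 of the runs of 3 lie within the stretch. The run of 4 was LOC106353576, LOC106353589, LOC106353581 and LOC106353580, within 25 gene places. LOC106353580 was its most abundant gene, with control values of 97.0, 82.1 and 84.7 FPKM and drought values of 34.7, 24.3 and 9.88 FPKM (ratio 0.261). LOC106353576 had control values of 12.6, 15.7 and 14.2 FPKM and drought values of 4.81, 5.58 and 2.04 FPKM (ratio 0.293). The other run of 3, LOC106352539, LOC106352536 and LOC106352512, had ratios of 0.380, 0.359 and 0.266. In LOC106352512 replicate 3 was the highest drought library, with 5.93, 4.73 and 6.70 FPKM, against 19.9, 24.6 and 20.9 FPKM under control.

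The same rows were then compared in G59, whose values the limits did not use. On the rows of the 129 lowered genes the G59 values were on balance higher under drought, as they were on most listed rows. The match of G59 to G67 values along a row is itself in doubt, for the reasons given further below. G59 results given here and below under a gene name are therefore read as those of its row only. Of the 129, 45 were called higher (34.9%, against 47.3% of all 998 listed genes) and 15 were called lower (11.6%, against 6.71% of all listed genes). The median log2 fold change on the log2(FPKM + 1) scale was 0.83 over the 129 genes and 0.98 over all listed genes. All 3 drought libraries lay above all control libraries in 94 of the 129 genes, and in 78.3% of the listed genes. They lay below all control libraries in 32 of the 129, and in 19.7% of the listed genes. At these settings the 129 genes thus had fewer higher calls and more lower calls, as shares, than the listed genes as a whole. The difference was not tested. With 0.1 FPKM added to each value in place of 1, 19.4% of the set and 17.4% of the listed genes were called lower. The shares called higher were then 66.7% and 74.9%.

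Scaling moved this split in the set and in the listed genes alike. Both scalings were computed from the listed genes alone, which already differed between control and drought. The median-ratio factors were 0.223 to 0.261 in the G59 control libraries and 0.519 to 0.718 in the G59 drought libraries. Scaled values therefore also moved against the 1 FPKM added. Of the genes of the set that were called in G59, 75.0% were higher as deposited, 55.1% (38 higher, 31 lower) after median-ratio scaling and 43.5% (27 higher, 35 lower) after quantile normalization. Over all listed genes the same shares were 87.6%, 63.9% and 54.3%. The median log2 fold change of all listed genes went from 0.98 to 0.56 and 0.29 with these scalings, and that of the set from 0.83 to 0.42 and 0.02.

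Levels in G59 were low. The listed genes summed to between 883 and 1059 FPKM in the G59 control libraries and to between 3439 and 5267 FPKM under drought, against at least 39158 FPKM in each G67 library. The lowered genes had a median control mean of 0.48 FPKM in G59 and a median drought mean of 1.48 FPKM. In 27 of them (20.9%) all G59 control libraries were listed at 0, and in 185 of the other listed genes (21.3%).

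It is in doubt that G59 and G67 values on 1 row belong to 1 gene. The group means of G67 and G59 had a rank correlation of -0.07 under control and -0.08 under drought over the 129 genes. Over all listed genes it was -0.03 and 0.009. Of the listed rows, 38 in 19 sets were identical in all G67 libraries, and 0 of these sets were identical in G59. In the set, 3 pairs had identical G67 values. LOC106348811 and LOC106348872 both had control values of 39.1, 18.7 and 16.01 FPKM and drought values of 11.8, 5.52 and 4.43 FPKM in G67. In G59 the first was listed at control values of 0, 0 and 0 FPKM and drought values of 2.85, 1.99 and 0.61 FPKM, and the second at 0.39, 0.40 and 0.55 and at 1, 1.39 and 1.44 FPKM.

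**Figure D5:**
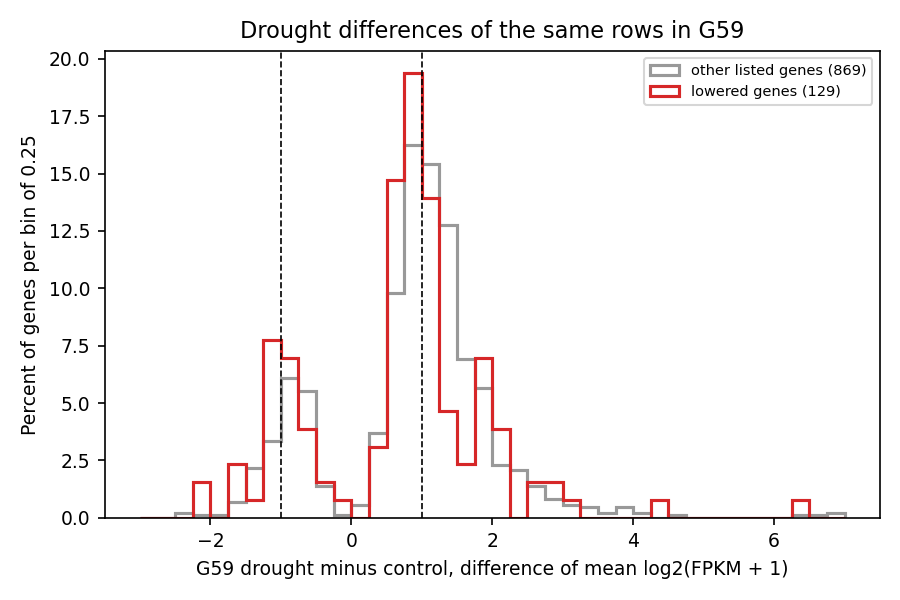
Histogram of the G59 drought minus control difference of mean log2(FPKM + 1), in bins of 0.25, as the percent of the 129 lowered genes (red) and of the 869 other listed genes (grey), with dashed lines at the limits of -1 and 1. Both outlines have a main peak above 0 and a smaller one below 0, with medians of 0.83 for the lowered genes and 0.998 for the others.

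In the 15 genes of the set called lower in G59, the G59 log2 fold changes lay between -2.24 and -1.0003. Their G59 control means were between 1.04 and 4.40 FPKM, and 6 of them were listed at 0 in all G59 drought libraries. LOC106354105 had 2.50, 4.83 and 5.37 FPKM in the G59 control libraries and 0.09, 0.06 and 0.06 FPKM under drought (log2 fold change -2.24 with a standard error of 0.22, limma adjusted p = 7.00e-06). In G67 it was among the least abundant of the set, with control values of 0.92, 0.87 and 1.49 FPKM and drought values of 0.28, 0.47 and 0.12 FPKM. The groups did not overlap in either genotype.

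LOC106354272, one of the abundant genes in G67, had 1.36, 3.19 and 1.81 FPKM in G59 under control and was listed at 0 throughout G59 drought (log2 fold change -1.60 with a standard error of 0.23, limma adjusted p = 9.69e-05). LOC106353576, of the run of 4 neighbours, had 1.28, 3.95 and 6.44 FPKM under control in G59 and 0 in each drought library (log2 fold change -2.13 with a standard error of 0.38, limma adjusted p = 3.40e-04). BNAANNG30680D likewise was listed at 0 throughout G59 drought, after 1.5, 3.10 and 1.74 FPKM under control. With drought at 0, these fold changes depend on the 1 FPKM added to each value.

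The 45 genes called higher in G59 had log2 fold changes from 1.01 to 6.36 with a median of 1.57, and in 11 of them all G59 control libraries were listed at 0. LOC106349269 was listed at 0 throughout the G59 control and had drought values of 9.61, 5.86 and 6.72 FPKM (log2 fold change 3.04 with a standard error of 0.17, limma adjusted p = 6.65e-08). In G67 it had control values of 66.5, 70.0 and 74.7 FPKM and drought values of 18.6, 18.7 and 20.4 FPKM. Its replicates lay close together, with a ratio of 0.273 ± 0.014.

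LOC106349215 was listed at 0, 0 and 0.14 FPKM under control in G59 and at 20.3, 22.4 and 15.7 FPKM under drought (log2 fold change 4.28 with a standard error of 0.29, limma adjusted p = 2.95e-07), while in G67 it went from 44.0, 27.4 and 37.0 FPKM to 13.9, 8.07 and 4.89 FPKM. LOC106353514 had the highest G59 drought level of the set. It had control values of 0.07, 0.04 and 0.29 FPKM and drought values of 143, 169 and 31.5 FPKM (log2 fold change 6.36 with a standard error of 0.47, limma adjusted p = 5.26e-07). Its replicate 3 under drought lay far below the other two, yet above all control libraries. In G67 the same row had control values of 2.90, 1.74 and 2.34 FPKM and drought values of 0.48, 0.89 and 0.29 FPKM.

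In G59, 17 of the 19 genes of the stretch had all drought libraries above all control libraries (78.3% of the listed genes did), and 2, LOC106354112 and LOC106354091, had them all below. The limma test called 4 of the 19 higher, 1 lower and 14 neither, where it called 47.3% of the listed genes higher and 6.71% lower. LOC106354107 had 0.83, 0.79 and 1.41 FPKM under control in G59 and 20.7, 17.5 and 6.78 FPKM under drought (log2 fold change 2.88 with a standard error of 0.34, limma adjusted p = 2.56e-05). LOC106354091, which is not in the set, had control values of 1.5, 2.06 and 1.09 FPKM and drought values of 0.28, 0.13 and 0.18 FPKM (log2 fold change -1.08 with a standard error of 0.26, limma adjusted p = 0.0025).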

How the data were processed

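Per the study's methods, the authors filtered reads of a DNBSEQ-G400 run with NGS QC Toolkit 2.2.3, mapped them to the Darmor-bzh genome (the aligner is not given in the sources used here) and made FPKM with the Cuffquant and Cuffnorm programs (Cufflinks 2.0.0). The methods mention 4 cDNA libraries, where the labels have 12. The deposited FPKM have 2 decimals for 998 genes. Read counts and depth are unknown, and 3 libraries per group limit the precision. A series table repeats the G67 values (7984 of 7984 equal). Its 1 column of the authors' ratios was not used.

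limma 3.58.1 (R 4.3.3) was fitted to log2(FPKM + 1) of the 12 libraries with 4 groups, with Benjamini-Hochberg adjustment over 998 genes and a call where the adjusted p did not exceed 0.05 and the log2 fold change reached 1 in size. It was tested on simulated data. Exact permutation of 3 against 3 libraries cannot go below p = 0.1 and was not used. Python 3.11.15, numpy 2.4.6, pandas 2.3.3 and matplotlib 3.10.9 gave the rest.

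The lowered genes and lists were chosen with earlier results of these data known. Genes were named as the 8 with the highest control mean, the 8 with the lowest ratio at a control mean of at least 5 FPKM, those at 0 in all drought libraries, up to 6 with overlapping libraries, the 3 called lower and the 3 called higher in G59 with the lowest p, and the 3 on either side of the limit. Some genes fall under more than 1 of these. The other genes named, in the neighbour comparison, the identical pairs and the count of 7 overlapping genes, were chosen after their values were seen. Alternatives were 2 pseudocounts, a filter on low values, 2 scalings, other limits, a variance trend, a replicate block, a fit within a genotype and leaving out each library. Same-numbered libraries deviated together in G67 (correlations of deviations 0.438, 0.190 and 0.194) and not in G59 (0.010, -0.008 and -0.132). The numbers were therefore read as pairs in G67 only. The labels state no pairing. Correlations of deviations between libraries of different numbers are not given here, so these values have no such baseline beside them. Gene functions, protein and promoter comparisons and flower markers had been planned and were not run, since no sequence or description was used here. Positions were read only as gene order in Da-Ae, as it is another assembly.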

Additional observations from a re-analysis of the deposited data

Results flagged for a closer look

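In 89 of the 129 lowered genes all 3 G67 drought libraries lay below their controls and all 3 G59 drought libraries above theirs. On these rows the G67 and G59 values thus moved in opposite directions, and the difference was not tested. Among the 122 lowered genes without overlap in G67 this is 73.0%, and among all 485 listed genes of that kind it is 369 genes (76.1%). These shares are close, so the count is not read as a trait of the set. In 30 of the 129 all drought libraries lay below their controls in both genotypes. The limits used the G67 part of this and the share over all listed genes was not computed, so nothing is read from it. The doubt about the rows of G59 holds here too.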

How the results depend on the processing

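The set depends most on its own limits. A ratio limit of 0.25 left 41 genes, one of 0.5 gave 203, and a control mean of at least 5 FPKM left 79. Group medians gave 116 genes (99 shared), geometric means 131 (121 shared), median-ratio scaling within G67 91 and quantile normalization 166 (123 shared). Leaving out each G67 library in turn gave 100 (without drought replicate 3) to 166 genes (without drought replicate 1), and 76 of the 129 met the limits each time. Of the 16 genes of the stretch in the set, 11 did so each time. The 103 called lower in G67 (145 of all listed genes), a description, became 68 (120) after median-ratio scaling, 104 (146) with the replicate block and 87 to 109 (101 to 211) without each G67 library.

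In G59 the 15 genes of the set called lower became 25 with a pseudocount of 0.1 or 0.01, 31 with median-ratio scaling, 35 with quantile normalization and 29 by the adjusted p alone. The 45 called higher became 86 with either pseudocount, 27 with quantile normalization and 82 by the adjusted p alone. Of all listed genes, the 67 lower became 174, 181, 194, 219 and 180 under the 5 settings, and the 472 higher became 748 and 749 with the pseudocounts, 260 with quantile normalization and 734 by the adjusted p alone. Without each G59 library, 12 to 15 genes of the set were lower and 42 to 55 higher. Of all listed genes, 61 to 78 were then lower and 427 to 522 higher. A fit of the 6 G59 libraries alone gave 15 lower and 46 higher (68 and 474 of all listed genes). With the replicate block 15 were lower and 46 higher (67 and 473 of all listed genes), and the block moved no count by over 1.5 times. Of the named genes it changed the call of LOC106346561 only, which became a call.

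The G59 log2 fold changes of the 29 named genes were computed 464 times under alternatives, of which 397 kept direction and call, 50 became calls, 7 lost the call and 10 changed sign. For the 6 genes named for their G59 test all 96 kept both. The sign changed after quantile normalization for LOC106352647 (-0.16), LOC106349237 (-0.25), LOC106350402 (-0.12) and LOC106346841 (-0.0011), and after median-ratio scaling and quantile normalization for LOC106353089 (-0.044 and -0.12), LOC106354101 (-0.49 and -1.58) and LOC106348991 (-0.24 and -0.59). The cause was not tested. In the neighbour comparison, windows of 1, 3 and 10 gene places, added after seeing the data, gave 53.6%, 42.9% and 35.8% in place of 41.5%. Without read counts, counting error could not be separated from the spread between libraries.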
